A study of Mus musculus with 26 samples.

Results

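The 10 genes described here encode 5 peroxiredoxins (Prdx1, Prdx2, Prdx3, Prdx5, Prdx6) and 5 proteins of the glutathione, thioredoxin and haem branches of the antioxidant response (Srxn1, Txnrd1, Hmox1, Gclm, Gclc). They were chosen by gene symbol and not by a threshold on measured values, though with earlier results of these data known. Of the 10, 10 passed the filter on low counts that left 15402 of the 52962 genes in the table for testing. In these cells the genes fell into distinct patterns. Gclc, Gclm, Srxn1 and Txnrd1 were lowest in cells with the wild-type insulin receptor, and Gclc and Gclm were highest in cells whose receptor had lost its intracellular domain. Prdx2 was 1.69 to 1.82 times higher in each of 4 receptor lines than in cells without the receptor, and 15 min of insulin left no member past the test in any line.

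Peroxiredoxins reduce hydrogen peroxide and organic peroxides through a reactive cysteine. Thioredoxin recycles most of them, thioredoxin reductase 1 (Txnrd1) recycles thioredoxin, and sulfiredoxin (Srxn1) rescues peroxiredoxins whose cysteine has been over-oxidised. Gclc and Gclm are the catalytic and modifier subunits of glutamate-cysteine ligase, which carries out the rate-limiting step of glutathione synthesis, and haem oxygenase 1 (Hmox1) breaks down haem. Many of these genes are textbook targets of NRF2, the transcription factor encoded by Nfe2l2, which KEAP1 holds at a low level in unstressed cells and which binds antioxidant response elements in DNA with a small MAF partner.

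The cells were mouse brown preadipocytes in culture, immortalised with SV40 T antigen. All groups share the Cre-mediated deletion of the floxed insulin receptor and IGF1 receptor genes, and cells with no added receptor are called DKO. Stable lines were made from DKO by retroviral transfer of a human receptor: the wild-type receptor (IR), a kinase-dead receptor (K1030R), a receptor without its C-terminal tail (∆CT), or a receptor that keeps, inside the cell, the juxtamembrane stretch alone (JMO). The study's methods also name an empty retroviral vector, with selection in hygromycin. The labels do not say whether the DKO dishes carried it. Every dish was starved of serum for 6 h, and the receptor lines were collected without insulin or after 15 min with 100 nM insulin, whereas DKO cells were collected without insulin alone. The 9 groups held 26 dishes, 3 in each except for the 2 of insulin-treated ∆CT. Each receptor is represented by 1 line, so p-values measure the spread between dishes of a line and cannot separate the receptor from other differences between lines. These are bulk RNA measurements, in which fewer cells of a kind and less RNA per cell cannot be told apart.

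RNA was sequenced in bulk, and values are estimated read counts per gene. Totals were 17228982 to 24694828 counts per library, and the members had between 518 (Prdx2) and 12265 (Prdx1) counts in a library. Levels are given in CPM, counts as a proportion of library sizes that were scaled by TMM, and dishes of a group varied with a biological coefficient of variation of 4.44%. Insr read 23.8 ± 1.3 CPM in DKO and 67.7 to 78.4 CPM (group means) in the 4 lines without insulin; counts per gene do not separate the deleted part of the mouse gene from the rest, or the human receptor's reads from mouse reads, so they check the labels in part. Of 11 preadipocyte and mesenchymal markers 8 were measured well enough to test, with summed levels of 6496 to 6886 CPM in DKO and JMO and 10093 to 13307 CPM in IR, K1030R and ∆CT without insulin, while Dlk1, Ebf2 and Zfp423 stayed under 0.5 CPM in all groups. That sum was carried by Col1a1, Col3a1 and Vim, and the other tested markers ran in different ways (group means without insulin). Ly6a was 44.9 CPM in DKO, 10.7 in JMO and 2.90 to 4.51 in the other lines, and Pdgfrb was highest in DKO (630.3 CPM). Thy1 was lowest in DKO, at 6.63 CPM against 21.8 to 28.8 CPM in the 4 lines. Cd34 was 3.44 CPM in DKO, 4.92 in JMO and 10.8 to 14.3 CPM in the other lines. Pdgfra was 164 CPM in DKO, 168 in K1030R, 221 in JMO, 233 in ∆CT and 278 in IR. Of the brown fat markers, Zic1 (111 to 140.1 CPM, group means) and Ppargc1a (5.78 to 12.4 CPM without insulin) were measured, and Ebf2, Prdm16, Cidea, Ucp1 and Dio2 were under 0.5 CPM. Adipoq, Plin1, Lep and Cfd of mature adipocytes, Ptprc, Adgre1 and Tyrobp of leukocytes, Cdh5, Kdr and Tek of endothelium, and Myod1, Myog and Myf5 of muscle were also under 0.5 CPM, while Pecam1 (8.98 to 13.1 CPM), Lyz2 (5.12 to 11.5 CPM), Cd68 (1.82 to 3.33 CPM) and Des (1.90 to 4.54 CPM) were above it. Summed mature adipocyte markers, of which Fabp4 and Lpl could be tested, were 50.3 to 53.7 CPM in JMO dishes and 27.4 to 38.4 CPM in all others, and the part of these shifts in the member results was not tested.

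On the mouse genome GRCm38 (gene models of GENCODE M21), the peroxiredoxin genes are Prdx1 (ENSMUSG00000028691, chr4:116685544-116700822, + strand), Prdx2 (ENSMUSG00000005161, chr8:84969587-84974834, +), Prdx3 (ENSMUSG00000024997, chr19:60864051-60874556, −), Prdx5 (ENSMUSG00000024953, chr19:6906697-6910106, −) and Prdx6 (ENSMUSG00000026701, chr1:161240112-161251219, −). The others are Srxn1 (ENSMUSG00000032802, chr2:152105516-152111376, +), Txnrd1 (ENSMUSG00000020250, chr10:82833951-82897712, +), Hmox1 (ENSMUSG00000005413, chr8:75093621-75100589, +), Gclm (ENSMUSG00000028124, chr3:122245557-122270732, +) and Gclc (ENSMUSG00000032350, chr9:77754535-77794485, +). The libraries were reverse-stranded, but whether kallisto counted them by strand is not given in the sources used here, so it was not settled whether reads from an overlap with an antisense neighbour were kept apart. Prdx2 shares 351 bases with the antisense gene Junb and 181 bases with Rnaseh2a, and Prdx5 shares 409 bases with the antisense gene Trmt112. Txnrd1 overlaps the antisense genes Gm38560 and Gm47073, and Gclm the antisense gene Gm17494. On the same strand, the span of Txnrd1 shares 1305 bases with the protein-coding gene Eid3. That of Gclm shares 492 bases with the processed pseudogene Gm6061. Strand does not tell these 2 pairs apart, and any sharing of their reads was not tested. Copies named after members took few reads: Prdx2-rs3 and Prdx6-ps2 had 0 counts in each library, and Prdx6b had at most 2 counts, or 0.143% of those of Prdx6.

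The stretch around the members' start sites was searched for the core of the antioxidant response element, TGACNNNGC, and for the related AP-1-like word TGANTCA, on both strands. RefSeq promoter windows of 300 bases (250 before and 50 after the start, GRCm38.p6) were at hand for 7 members, in 9 windows; Prdx6, Hmox1 and Gclc had no entry. The core was found in 4 of the 9 windows (of Gclm, Txnrd1, Srxn1 and Prdx1) against 12.4% of 32851 windows over all genes. Txnrd1 had 3 of the windows. Its match lay in the window chr10:82858956-82859255, whose start site is inside the gene and not at its first base. TGANTCA was found in 2 of the 9 windows (of Srxn1 and Prdx1) against 7.81% of all windows, and in Prdx1 one match overlaps the core. The matches before the start are shown with 12 bases on either side, 5′ to 3′ on the gene's strand, with the matched bases in capitals; the core reads on the opposite strand in Gclm, Txnrd1 and Prdx1. In Srxn1 the core lies after the start and is not shown, so its capitals are TGANTCA matches.
Gclm (chr3:122245411-122245443, + strand): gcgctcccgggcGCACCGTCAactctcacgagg
Txnrd1 (chr10:82859102-82859134, + strand): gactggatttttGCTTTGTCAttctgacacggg
Srxn1 (chr2:152105410-152105497, + strand): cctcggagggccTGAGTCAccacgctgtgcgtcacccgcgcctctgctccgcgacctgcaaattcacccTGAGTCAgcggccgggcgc
Prdx1, outer match (chr4:116685350-116685380, + strand): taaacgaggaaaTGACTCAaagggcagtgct
Prdx1, inner match (chr4:116685454-116685486, + strand): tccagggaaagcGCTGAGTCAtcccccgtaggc
These matches are letters in a sequence and not measured binding. Prdx1 holds both words, and its level moved least of all members. Whether a match bears on the level of a member was not tested. Prdx2, Prdx3 and Prdx5 held neither word in their windows. Sites outside the windows of 300 bases were not searched. Over 9 group means the Pearson correlations of Prdx5 with Gclm and Srxn1 were 0.87 and 0.86, and any link of these values to the words was not tested.

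Within DKO cells the members were ranked per kilobase of principal transcript, the scale on which genes can be compared. Prdx1 stood first at 214 CPM per kilobase, followed by Txnrd1 at 93.6 and Prdx5 at 72.9. Prdx3 (33.1), Srxn1 (31.1), Hmox1 (30.8) and Gclc (29.5) followed. Gaps between neighbours among them were smaller than the summed SDs, so that each could not be ordered against the next. Prdx6 (24.7), Prdx2 (17.4) and Gclm (9.79 CPM per kilobase) came last. The order was the same with the union of all annotated exons as length. Over the 9 group means, Gclc had the widest range of log2 CPM (0.91), then Prdx2 (0.85) and Hmox1 (0.55), and Prdx1 the narrowest (0.14); 80.5% of tested genes had a smaller range than Gclc and 3.75% a smaller range than Prdx1.

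**Figure D1:**
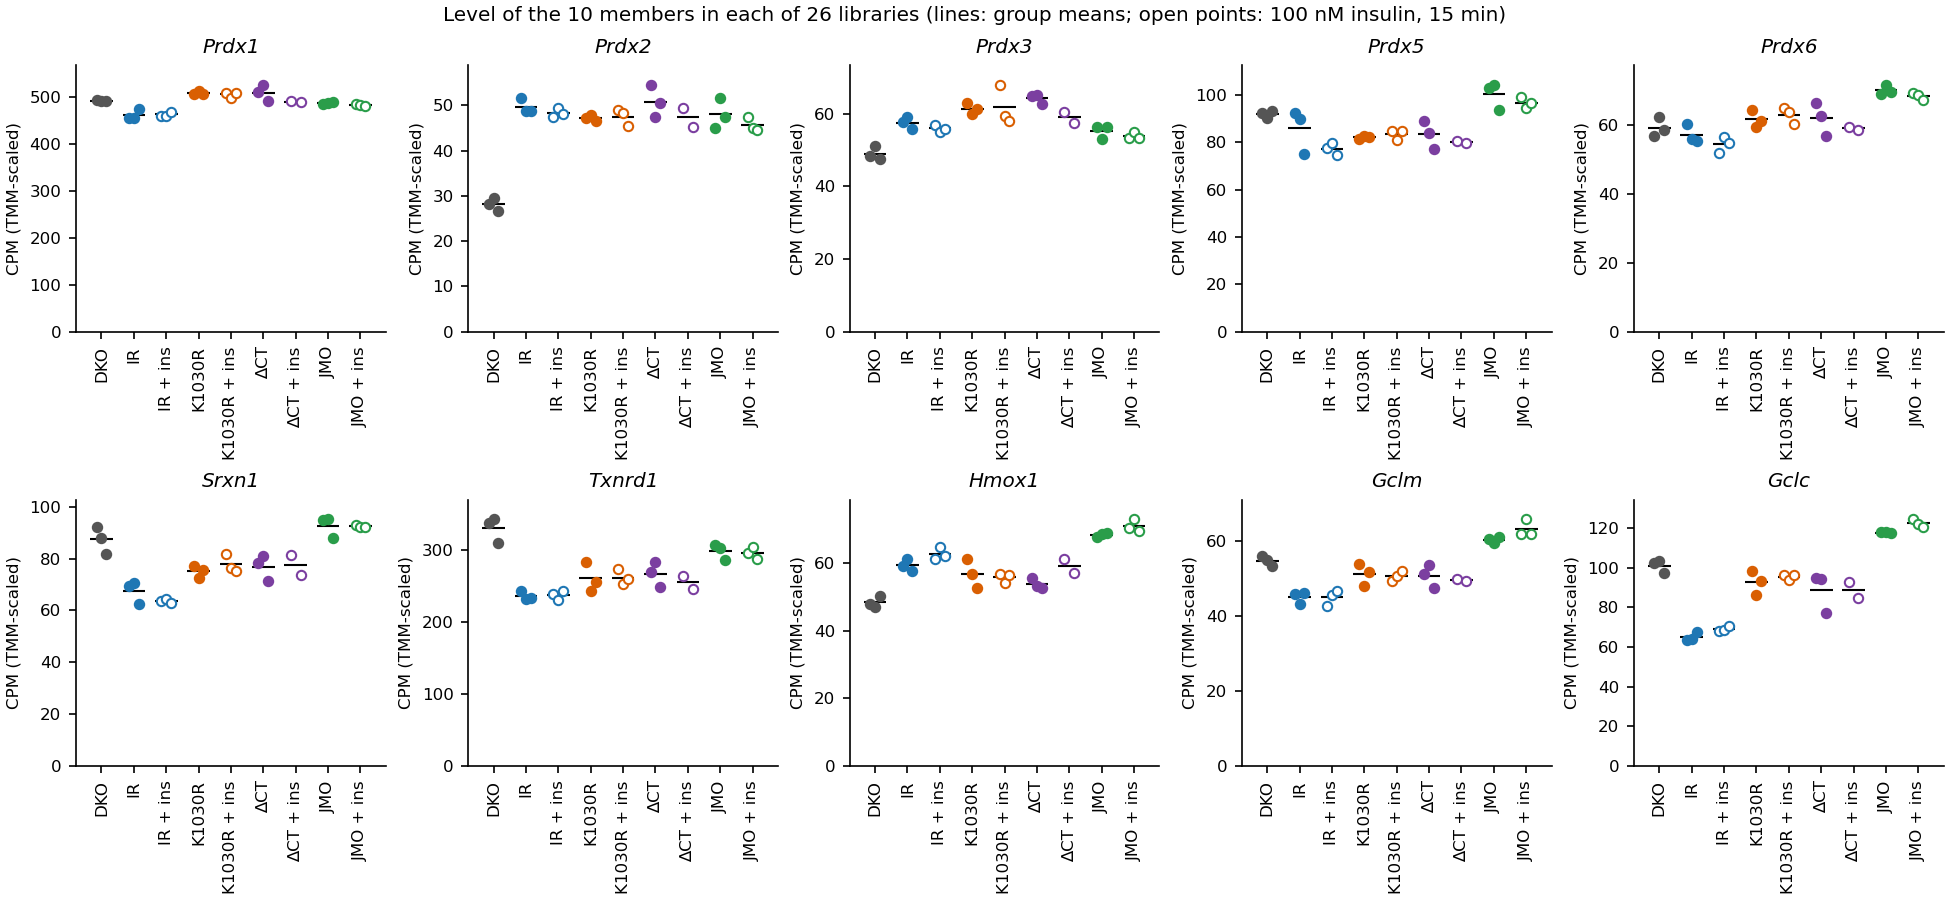
Level of each member (vertical axes, TMM-scaled CPM from 0) in the 26 libraries by group, with filled points for dishes without insulin, open points for dishes with insulin and lines for group means. The IR dishes of Gclc sit between 63.5 and 70.6 CPM, below those of all other groups, and the DKO dishes of Prdx2 sit between 26.6 and 29.4 CPM, apart from the rest.

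Gclc, the catalytic subunit that sets glutathione synthesis, separated the lines most. It read 102, 103 and 97.4 CPM in DKO, 63.5, 64.1 and 67.7 CPM in IR, and 118, 118 and 117 CPM in JMO. In K1030R it read 98.2, 86.3 and 93.1 CPM, and in ∆CT 95.04, 94.3 and 77.3 CPM. IR lay below every other group and JMO above every other group with no overlap, and K1030R overlapped DKO. Against DKO the log2 fold change was −0.63 ± 0.05 in IR (SE; edgeR quasi-likelihood adjusted p = 6.2e-11) and 0.22 ± 0.05 in JMO (edgeR adjusted p = 0.0011). It was −0.18 ± 0.05 in ∆CT (edgeR adjusted p = 0.0058), a call that was lost without ∆CT replicate 3 (−0.09, edgeR adjusted p = 0.088) and in a fit of these 2 groups alone (edgeR adjusted p = 0.084). In K1030R the value was −0.13 ± 0.05 and just missed the threshold (edgeR adjusted p = 0.059). It passed without DKO replicate 3, K1030R replicate 1 or any single ∆CT dish of those without insulin (−0.13 to −0.17, edgeR adjusted p = 0.0083 to 0.048). It also passed with RLE scaling, with no filter on low counts and in a fit of these 2 groups alone (edgeR adjusted p = 0.047, 0.036 and 0.024).

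Gclm, the modifier subunit of the same enzyme, followed Gclc with smaller steps. Its levels were 55.9, 54.96 and 53.3 CPM in DKO, 45.9, 43.3 and 46.1 CPM in IR, and 60.5, 59.3 and 61.1 CPM in JMO. Here too the IR dishes were the lowest and the JMO dishes the highest, without overlap with DKO. Against DKO the log2 fold change was −0.28 ± 0.05 in IR (edgeR adjusted p = 7.05e-06) and 0.14 ± 0.05 in JMO (edgeR adjusted p = 0.014), the latter lost without DKO replicate 3 (0.12, edgeR adjusted p = 0.066). K1030R (−0.10) and ∆CT (−0.11) did not pass (edgeR adjusted p = 0.096 and 0.057). K1030R passed without its replicate 1 (−0.13, edgeR adjusted p = 0.035), and ∆CT without its replicate 2 (−0.15, edgeR adjusted p = 0.017), without K1030R replicate 2 or without JMO replicate 2 with insulin.

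Srxn1, the repair enzyme of over-oxidised peroxiredoxins, fell against DKO in the 3 lines with an intracellular domain. Its levels were 92.3, 88.1 and 81.9 CPM in DKO, 69.6, 70.5 and 62.5 CPM in IR, 77.02, 72.5 and 75.6 CPM in K1030R, 78.2, 81.0 and 71.4 CPM in ∆CT, and 94.9, 95.2 and 88.0 CPM in JMO. JMO overlapped DKO, and the other lines lay below DKO. The log2 fold change was −0.37 ± 0.05 in IR, −0.22 ± 0.05 in K1030R and −0.18 ± 0.05 in ∆CT (edgeR adjusted p = 1.9e-07, 6.1e-04 and 0.0029), and 0.09 ± 0.05 in JMO (edgeR adjusted p = 0.18). Txnrd1, which recycles thioredoxin, was lower than in DKO in all 4 lines. It read 338, 343 and 310.3 CPM in DKO, 244, 232 and 233 CPM in IR, 284, 243 and 256 CPM in K1030R, 269.7, 283 and 248 CPM in ∆CT, and 307, 303 and 286 CPM in JMO. No receptor dish reached the DKO range. The log2 fold change was −0.48 ± 0.05 in IR, −0.34 ± 0.05 in K1030R and −0.31 ± 0.05 in ∆CT (edgeR adjusted p = 1.5e-08, 5.7e-06 and 2.0e-05). In JMO it was −0.15 ± 0.05 (edgeR adjusted p = 0.028), and that call was lost without DKO replicate 1, DKO replicate 2 or JMO replicate 3 (−0.13, −0.12 and −0.11, edgeR adjusted p = 0.10, 0.12 and 0.14).

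Among the peroxiredoxins, Prdx2, a cytosolic enzyme that is abundant in red cells, was the member with the largest difference from DKO. It read 28.2, 29.4 and 26.6 CPM in DKO, while the 12 dishes of the 4 lines without insulin ranged from 45.1 CPM in JMO to 54.5 CPM in ∆CT. No receptor line overlapped DKO, and the lines overlapped each other except that the K1030R dishes lay below those of IR. The log2 fold change was 0.83 ± 0.06, 0.75 ± 0.06, 0.86 ± 0.06 and 0.78 ± 0.06 for IR, K1030R, ∆CT and JMO (edgeR adjusted p = 9.0e-15, 2.3e-13, 4.1e-15 and 2.3e-13). These 4 comparisons share the 3 DKO dishes. Of its antisense neighbours, Junb went from 35.9 ± 2.7 CPM in DKO to 27.9 ± 6.0 in IR, 22.2 ± 1.9 in ∆CT and 37.0 ± 2.0 in JMO, and Rnaseh2a from 24.5 ± 2.1 CPM to between 26.9 and 27.7 CPM, smaller shifts than that of Prdx2.

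Prdx3, the mitochondrial peroxiredoxin, was also above DKO in every line. Its dishes read 48.3, 51.0 and 47.4 CPM in DKO, 57.8, 59.1 and 55.8 CPM in IR, 62.8, 60.0 and 61.3 CPM in K1030R, 64.9, 65.0 and 62.7 CPM in ∆CT, and 56.4, 53.1 and 56.2 CPM in JMO. The log2 fold change was 0.24 ± 0.05, 0.33 ± 0.05, 0.40 ± 0.05 and 0.18 ± 0.05 in IR, K1030R, ∆CT and JMO (edgeR adjusted p = 6.3e-05, 4.5e-07, 8.2e-09 and 0.0029). Prdx6, which also has phospholipase activity, differed in JMO alone among the 4, at 68.9, 71.5 and 69.5 CPM against 56.7, 62.1 and 58.4 CPM in DKO (log2 fold change 0.24 ± 0.05, edgeR adjusted p = 1.1e-04). In IR, K1030R and ∆CT its log2 fold change was −0.05, 0.06 and 0.07, none past the test (edgeR adjusted p = 0.25 to 0.47), although ∆CT passed without its replicate 3 (0.13, edgeR adjusted p = 0.030).

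Prdx5, which is found in mitochondria, peroxisomes and cytosol, had small and unsteady differences. It was lower than in DKO in K1030R (log2 fold change −0.16 ± 0.06, edgeR adjusted p = 0.018) and ∆CT (−0.14 ± 0.05, edgeR adjusted p = 0.036). The first call was lost without DKO replicate 3 or K1030R replicate 1 (−0.15 and −0.16, edgeR adjusted p = 0.059 and 0.050), and the second without DKO replicate 1 or 3 or ∆CT replicate 2 or 3 (−0.09 to −0.14, edgeR adjusted p = 0.071 to 0.21). In IR the dishes read 92.4, 90.04 and 75.3 CPM, so that IR replicate 3 stood apart, and the log2 fold change of −0.10 passed without IR replicate 1 (−0.16, edgeR adjusted p = 0.024). In JMO the value was 0.12 (edgeR adjusted p = 0.075). It passed without IR replicate 1, IR replicate 3 or JMO replicate 3 (0.12 to 0.17, edgeR adjusted p = 0.015 to 0.050). Prdx1, the most abundant member, ranged from 455 to 526 CPM over all dishes. Its sole call against DKO was in IR (−0.09 ± 0.03, edgeR adjusted p = 0.0050), which was lost with no filter on low counts (edgeR adjusted p = 0.071), and ∆CT passed without its replicate 3 (0.08, edgeR adjusted p = 0.025).

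Hmox1, which opens the haem ring and releases iron, was above DKO in all lines and furthest in JMO. It read 47.9, 47.1 and 50.2 CPM in DKO, 59.2, 61.3 and 57.6 CPM in IR, 61.1, 56.9 and 52.6 CPM in K1030R, 55.4, 53.3 and 52.7 CPM in ∆CT, and 67.9, 68.5 and 68.8 CPM in JMO. DKO lay below and JMO above all other dishes without insulin. The log2 fold change was 0.29 ± 0.05 for IR, 0.23 ± 0.05 for K1030R, 0.15 ± 0.05 for ∆CT and 0.50 ± 0.04 for JMO (edgeR adjusted p = 1.6e-06, 1.1e-04, 0.0066 and 6.0e-11).

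**Figure D2:**
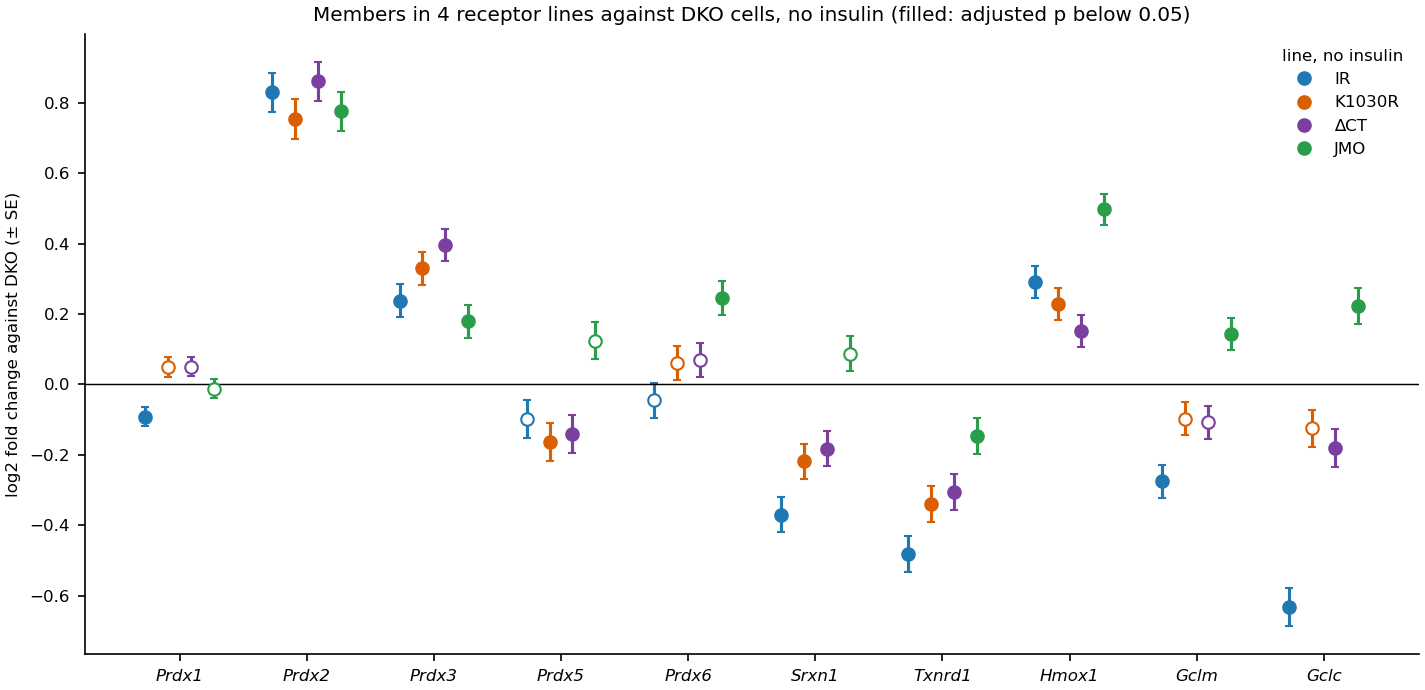
Log2 fold change of each member against DKO (vertical axis, ± SE) in the 4 receptor lines without insulin, with filled points where the edgeR adjusted p is below 0.05. Prdx2 is between 0.75 and 0.86 in all lines, and Gclc runs from −0.63 in IR to 0.22 in JMO.

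Counted over the members, IR had 3 higher and 5 lower than DKO, where 25.6% and 24.1% of all tested genes were called higher and lower. K1030R had 3 higher and 3 lower (21.2% and 20.4% of all genes), and ∆CT 3 higher and 4 lower (23.4% and 22.9%). JMO had 6 higher and 1 lower (16.9% and 17.4%). The median log2 fold change of the members was −0.10 for IR, −0.02 for K1030R, −0.03 for ∆CT and 0.16 for JMO, beside medians of 0.01 over all genes in each line. Most differences were modest. Against a minimum fold of 1.5, only Prdx2 passed in each of the 4 lines, where 6.89%, 5.29%, 6.29% and 2.11% of all genes passed in IR, K1030R, ∆CT and JMO.

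To ask which members go with the presence of an intracellular domain, the mean of IR, K1030R and ∆CT was compared with the mean of DKO and JMO. Of the members 2 were higher and 6 lower (26.7% and 25.6% of all genes), and none passed a minimum fold of 1.5 (5.67% of all genes). The lower ones were Gclc (−0.42 ± 0.03), Srxn1 (−0.30 ± 0.03), Txnrd1 (−0.30 ± 0.03), Gclm (−0.23 ± 0.03), Prdx5 (−0.20 ± 0.04) and Prdx6 (−0.09 ± 0.03), with edgeR adjusted p from 9.2e-12 for Gclc to 0.011 for Prdx6. The call of Prdx6 was lost without DKO replicate 2 (−0.08, edgeR adjusted p = 0.052). Against DKO alone, Srxn1 and Txnrd1 passed in each of the 3 lines, Gclc in IR and ∆CT, and Gclm in IR alone. Prdx5 passed in K1030R and ∆CT, and Prdx6 in none of the 3. A call on the mean of the 3 lines thus does not show that each line shifted. Prdx3 was higher (0.23 ± 0.03, edgeR adjusted p = 4.3e-08) and so was Prdx2 (0.43 ± 0.04, edgeR adjusted p = 1.2e-12). In Prdx3, JMO too was above DKO (0.18, edgeR adjusted p = 0.0029). Without insulin it was −0.06 against IR (edgeR adjusted p = 0.33), −0.15 against K1030R and −0.22 against ∆CT (edgeR adjusted p = 0.0094 and 2.1e-04). JMO alone did not differ from the 3 lines in Prdx2 by the test: without insulin JMO was −0.05 against IR, 0.02 against K1030R and −0.08 against ∆CT (edgeR adjusted p = 0.45, 0.78 and 0.21). In the dishes with insulin, which hold no DKO, the mean of the 3 lines was 0.06 above JMO for Prdx2 (edgeR adjusted p = 0.27) and 0.26 below it for Hmox1 (log2 difference −0.26, edgeR adjusted p = 2.1e-07), which was −0.02 in the comparison with DKO and JMO.

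The receptor lines were compared with each other in dishes without insulin and in separate dishes with insulin. JMO against IR gave the widest differences. Without insulin 8 members were higher in JMO (42.4% of all genes were called in either direction), and with insulin 7 were higher (40.2%). Gclc stood at 117 to 118 CPM in JMO and 63.5 to 67.7 CPM in IR without insulin, and at 121 to 124 and 68.0 to 70.6 CPM with insulin. The log2 difference was 0.86 ± 0.05 without and 0.83 ± 0.05 with insulin (edgeR adjusted p = 8.1e-14 and 1.7e-13), and Gclc was the member that passed a minimum fold of 1.5, alone in both conditions (4.59% and 4.67% of all genes). Srxn1 differed by 0.46 ± 0.05 and 0.54 ± 0.05, Gclm by 0.42 ± 0.05 and 0.49 ± 0.05, Txnrd1 by 0.34 ± 0.05 and 0.32 ± 0.05, Prdx6 by 0.29 ± 0.05 and 0.33 ± 0.05, Prdx5 by 0.22 ± 0.05 and 0.32 ± 0.05, and Hmox1 by 0.21 ± 0.04 and 0.18 ± 0.04 (edgeR adjusted p from 8.1e-11 to 0.0013). The call of Prdx5 without insulin was lost in a fit of these 2 groups alone (edgeR adjusted p = 0.061). Prdx1 was the eighth without insulin (0.08, edgeR adjusted p = 0.017), lost without IR replicate 1 or 2 (0.07 each, edgeR adjusted p = 0.069 and 0.076). With insulin it missed (0.06, edgeR adjusted p = 0.072) and passed without IR replicate 3 or ∆CT replicate 3 of the dishes without insulin (0.06 each, edgeR adjusted p = 0.045 and 0.047). Prdx2 and Prdx3 were between −0.05 and −0.08 and did not pass (edgeR adjusted p = 0.24 to 0.45).

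K1030R and ∆CT stood between IR and JMO for Gclc, in both conditions. Against IR the log2 difference of Gclc was 0.51 ± 0.05 in K1030R and 0.45 ± 0.05 in ∆CT without insulin (edgeR adjusted p = 3.1e-08 and 3.2e-07), and 0.47 ± 0.05 and 0.36 ± 0.06 with insulin (edgeR adjusted p = 7.8e-08 and 5.7e-05). JMO exceeded them by 0.35 and 0.40 without insulin and by 0.36 and 0.47 with it (edgeR adjusted p from 2.3e-07 to 3.7e-06). In K1030R against IR, 5 members were called without insulin, all higher (30.2% of all genes in either direction), and 8 with insulin (34%), of which Hmox1 alone was lower (−0.17 ± 0.04, edgeR adjusted p = 0.0030). In ∆CT against IR, 7 were called without insulin, Hmox1 alone lower (26.1%), and 3 with insulin, Prdx1, Srxn1 and Gclc, all higher (19.7%).

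Beyond Gclc, the calls against IR that held whichever single dish was left out were as follows. In K1030R they were Prdx1 and Gclm without insulin and Prdx1, Prdx6, Srxn1, Hmox1 and Gclm with insulin, and in ∆CT they were Prdx1 and Prdx3 without insulin and Srxn1 with insulin. Without insulin, Srxn1 (0.15) and Txnrd1 (0.14) of K1030R were lost without K1030R replicate 1 or 3 or IR replicate 3, and Txnrd1 also without IR replicate 2 (edgeR adjusted p = 0.057 to 0.28), which leaves 3 members called at the fewest. In ∆CT, Gclm (0.17), Txnrd1 (0.18) and Hmox1 (−0.14) were lost without IR replicate 2, leaving 4 members called, and with Srxn1 (0.19) they were lost without ∆CT replicate 2, leaving 3 (edgeR adjusted p = 0.051 to 0.10). Srxn1 was also lost without IR replicate 3, and Hmox1 without ∆CT replicate 3 (edgeR adjusted p = 0.053 and 0.055). In the other direction, Prdx6 of ∆CT (0.12) passed without IR replicate 1, ∆CT replicate 3 or either of JMO replicates 2 and 3 with insulin (edgeR adjusted p = 0.0055 to 0.050), Prdx6 of K1030R (0.11) without IR replicate 1 (edgeR adjusted p = 0.040), and Prdx5 of both without IR replicate 3 (−0.15 and −0.13, edgeR adjusted p = 0.013 and 0.040).

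With insulin, Prdx3 of K1030R (0.14) was lost without IR replicate 2 or K1030R replicate 1 of the dishes with insulin (edgeR adjusted p = 0.051 and 0.24), and Txnrd1 (0.14) without IR replicate 3 of the dishes without insulin, or IR replicate 1 or 2 or K1030R replicate 1 or 3 with insulin (edgeR adjusted p = 0.051 to 0.17). Prdx5 of K1030R (0.11) passed without IR replicate 3 of the dishes without insulin (edgeR adjusted p = 0.046). In ∆CT with insulin the call of Prdx1 (0.08, edgeR adjusted p = 0.049) was lost on leaving out each of 13 dishes in turn (edgeR adjusted p = 0.053 to 0.17), and Gclm (0.14, edgeR adjusted p = 0.057) passed without each of 9 dishes (edgeR adjusted p = 0.025 to 0.049).

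**Figure D3:**
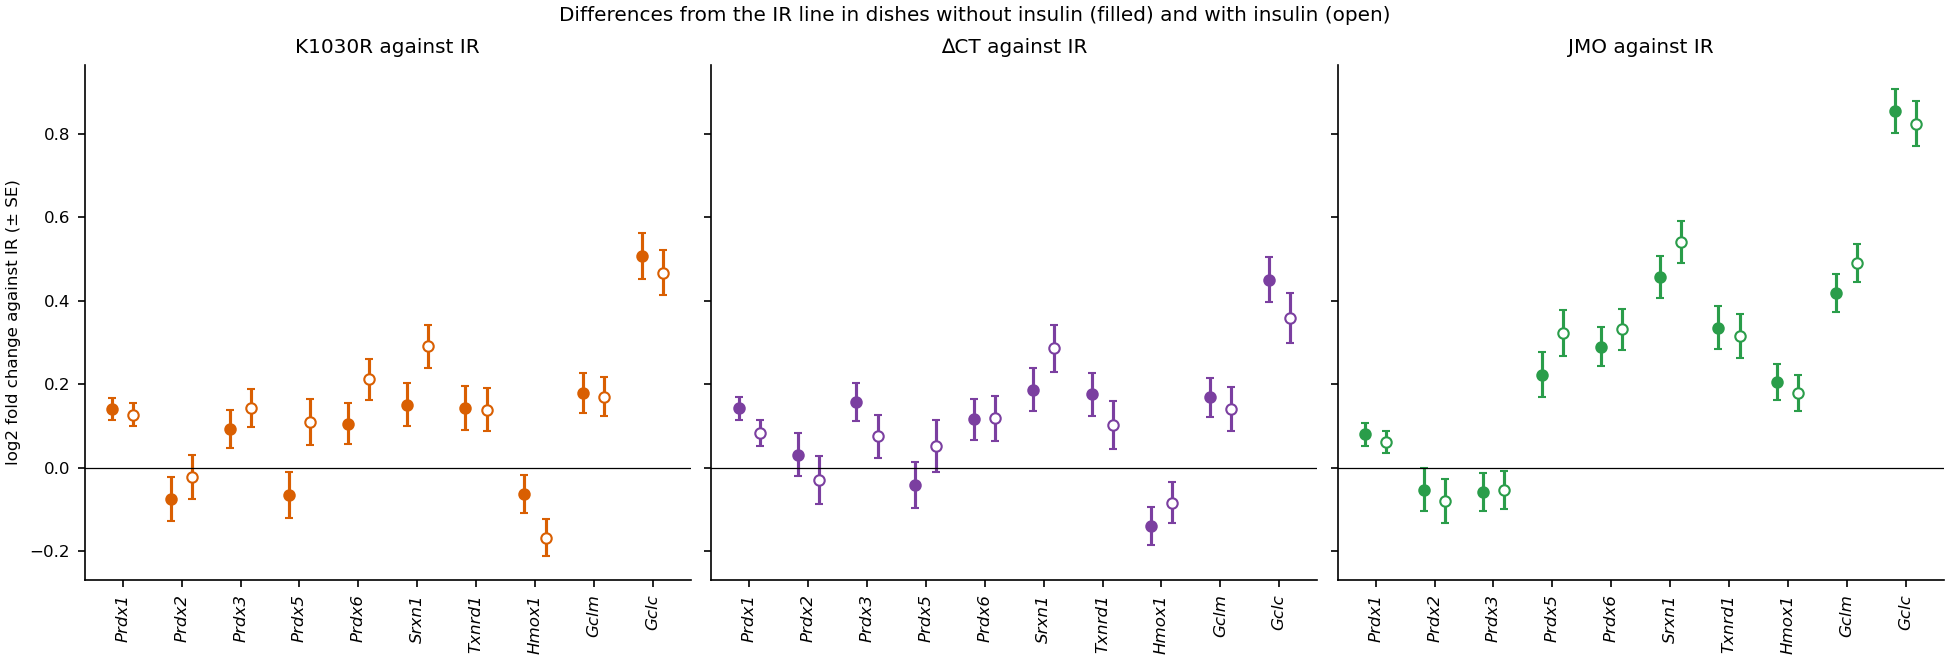
Log2 fold change of each member against the IR line (vertical axis, ± SE) for K1030R, ∆CT and JMO, with filled points for dishes without insulin and open points for dishes with insulin. Gclc is the highest point of each panel in both conditions, at 0.86 and 0.83 in JMO.

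JMO also differed from K1030R and ∆CT. Against K1030R, 8 members were called without insulin (35.4% of all genes) and 8 with insulin (38.4%). Against ∆CT, 8 were called without insulin (38.8%) and 7 with insulin (33.1%). In each of the 4 comparisons Prdx5, Prdx6, Srxn1, Txnrd1, Hmox1, Gclm and Gclc were higher in JMO, and Prdx3 was lower in 3 of them (−0.15, −0.22 and −0.20). Prdx3 in JMO against ∆CT with insulin was −0.13 (edgeR adjusted p = 0.052). Hmox1 differed by 0.26 to 0.35 on the log2 scale over the 4 comparisons (edgeR adjusted p from 6.4e-08 to 5.2e-05). Of these calls, those of Prdx3 against K1030R without insulin (without JMO replicate 2), Prdx6 and Txnrd1 against ∆CT without insulin (both without ∆CT replicate 3, Txnrd1 also without JMO replicate 1 or 2), Srxn1 and Txnrd1 against ∆CT with insulin (without ∆CT replicate 2 with insulin) were lost without a dish (edgeR adjusted p = 0.050 to 0.11). Prdx6 against K1030R with insulin (0.12, edgeR adjusted p = 0.046) was lost without each of 7 dishes (edgeR adjusted p = 0.050 to 0.21), and also with RLE scaling, with no filter or a filter of 10 counts, and by DESeq2 (adjusted p = 0.058, 0.18, 0.057 and 0.10). Prdx1 was lower in JMO than in ∆CT without insulin once ∆CT replicate 3 was left out (−0.09, edgeR adjusted p = 0.011). With insulin, Prdx1 against K1030R (−0.07, edgeR adjusted p = 0.051) passed without each of 4 dishes, and Prdx3 against ∆CT without each of 9.

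Between ∆CT and K1030R, 0 members were called without insulin (3.43% of all genes by edgeR's quasi-likelihood test) and 0 with insulin (5.03%), and the count was 0 by DESeq2 and limma voom as well. At an unadjusted p below 0.05 there was 1 member without insulin, Prdx2 (0.11 ± 0.05), named after its value was seen, and 0 with insulin. The log2 differences of the 10 members lay between −0.08 and 0.11 without insulin and between −0.11 and 0.08 with insulin, with SEs of at most 0.06.

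Insulin for 15 min called 0 members in IR, K1030R, ∆CT or JMO by edgeR's quasi-likelihood test, and 0 by DESeq2 and limma voom. Over all genes 1.87% were called for IR, 0.156% for K1030R, 1.01% for ∆CT and 0.364% for JMO. At an unadjusted p below 0.05 there were 1 member in IR (Prdx5), 0 in K1030R, 2 in ∆CT (Prdx3 and Hmox1) and 0 in JMO. The log2 changes ran from −0.15 for Prdx5 to 0.09 for Gclc in IR, from −0.03 to 0.05 in K1030R, from −0.12 for Prdx3 to 0.14 for Hmox1 in ∆CT and from −0.07 to 0.07 in JMO. All 95% intervals lay between −0.26 and 0.23, so a larger shift of a member at this time lay outside these intervals. Junb, the antisense neighbour that overlaps the end of Prdx2, rose from 27.9 ± 6.0 to 139 ± 9.9 CPM in IR with insulin. Prdx2 read 49.7 ± 1.6 CPM in IR without and 48.2 ± 1.0 CPM with insulin, and any share of Junb reads in its counts was not tested.

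The value of Prdx5 in IR depended on single dishes. Without insulin IR read 92.4, 90.04 and 75.3 CPM and with insulin 77.7, 79.8 and 74.6 CPM. The log2 change of −0.15 ± 0.06 did not pass (edgeR adjusted p = 0.17), but without IR replicate 3 of the dishes without insulin it was −0.24 (edgeR adjusted p = 0.0013), without IR replicate 1 −0.09 (edgeR adjusted p = 0.69) and without IR replicate 2 −0.12 (edgeR adjusted p = 0.48). The insulin effect of Prdx5 in K1030R minus that in IR moved likewise from 0.17 ± 0.08 (edgeR adjusted p = 0.59) to 0.26 without replicate 3 (edgeR adjusted p = 0.031), and was 0.12 and 0.14 without replicates 1 and 2, neither of which passed. With all dishes, the difference of the insulin effect from that in IR called 0 members in K1030R, ∆CT and JMO by edgeR, DESeq2 and limma voom, where 0.37%, 0.00649% and 0.279% of all genes were called by edgeR's quasi-likelihood test. At an unadjusted p below 0.05 there were 1 member (Prdx5), 0 and 0.

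**Figure D4:**
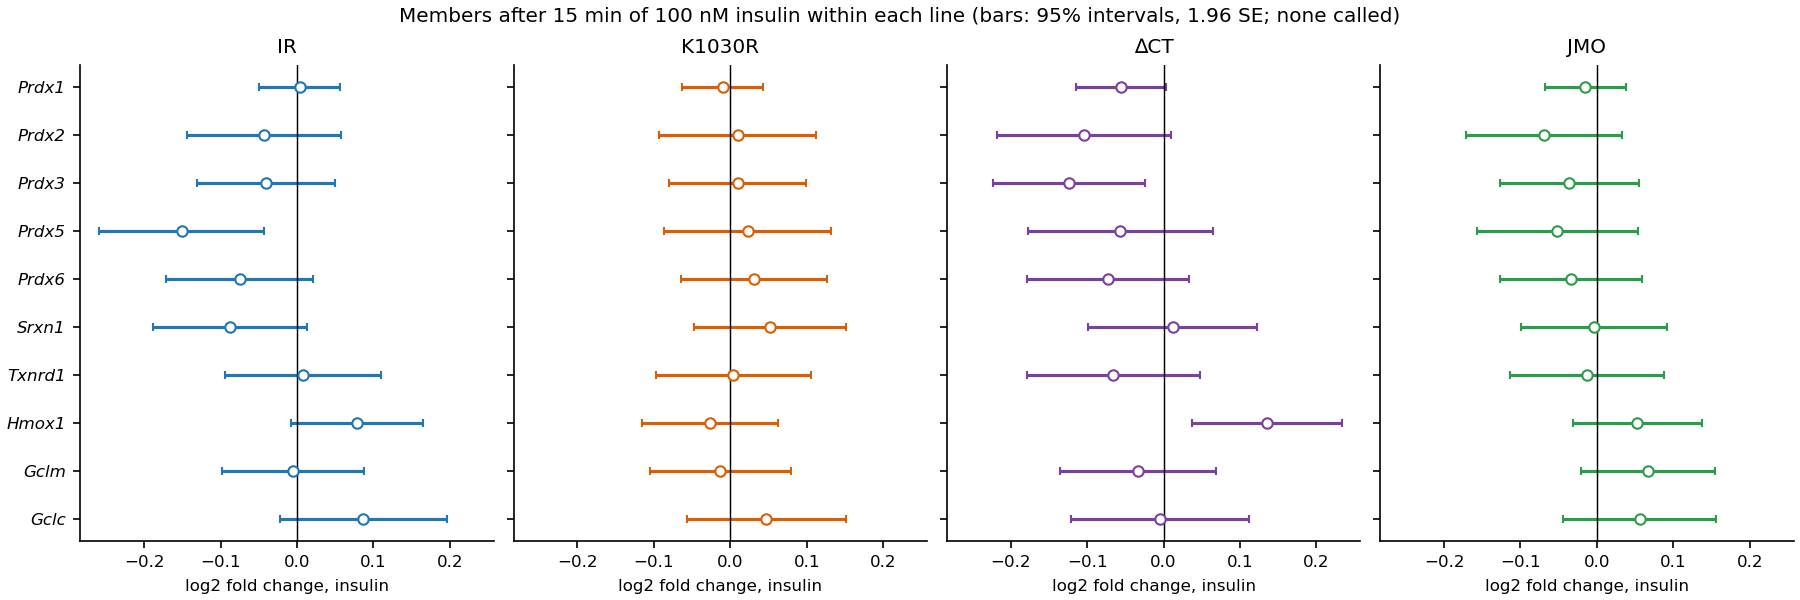
Log2 fold change of each member with insulin within each line (horizontal axes), with bars of 95% intervals. No member passed the test, and Prdx5 in IR (−0.15), Prdx3 in ∆CT (−0.12) and Hmox1 in ∆CT (0.14) are the ones whose intervals leave out 0.

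The members fell into groups by how their 9 group means ran together, given here as a description over means from 5 cell lines that share dishes and scaling. Gclc, Gclm and Srxn1 had Pearson correlations of 0.96 to 0.97 with each other, and Txnrd1 had 0.89 with Srxn1 and 0.82 with both Gclm and Gclc. Prdx6 correlated with Gclm, Gclc and Srxn1 at 0.90, 0.89 and 0.85, and Prdx5 at 0.87, 0.76 and 0.86, so these peroxiredoxins were not set apart from that group by this measure. Prdx2 and Prdx3 correlated at 0.77, and Prdx2 and Txnrd1 at −0.73. The correlation with Nfe2l2, which encodes NRF2, was 0.91 for Srxn1, Txnrd1 and Gclm, 0.87 for Gclc, 0.84 for Prdx5, 0.66 for Prdx6, 0.26 for Hmox1, 0.12 for Prdx1, −0.56 for Prdx2 and −0.71 for Prdx3. Among 6459 tested genes whose group means spanned at least 0.5 on the log2 scale, those most like Gclc were Cyp1b1 (0.99), Shank2 (0.99), Gtse1 (0.98) and Recql (0.98). Those most like Prdx2 were Sec31b (0.99), Prss53 (0.99), Nrk (0.99) and Jmjd8 (0.98), and those most like Hmox1 were Adgrg2 (0.98), Sik1 (0.97), Cdh11 (0.96) and Shroom3 (0.95).

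The NRF2 control genes were read beside the members. Nfe2l2 was at 131 ± 2.6 CPM in DKO, 131 ± 4.4 in JMO, 108 ± 2.5 in IR, 114 ± 1.5 in K1030R and 112 ± 5.5 in ∆CT without insulin. Its log2 fold change against DKO was −0.28 in IR, −0.20 in K1030R, −0.22 in ∆CT (edgeR adjusted p = 1.1e-07, 4.7e-05 and 7.7e-06) and −0.01 in JMO (edgeR adjusted p = 0.92). Keap1, its inhibitor, was between 69.7 and 72.0 CPM without insulin and was called in no line. Bach1, a repressor at the same DNA elements, was higher than in DKO in IR (0.14, edgeR adjusted p = 2.4e-04) and lower in K1030R, ∆CT and JMO (−0.20, −0.13 and −0.09, edgeR adjusted p = 3.0e-06, 6.8e-04 and 0.031). Of the 13 control genes, 6 were higher and 4 lower in the lines with an intracellular domain against DKO and JMO (median 0.02, beside 0.01 over all genes). Over all genes 26.7% were called higher and 25.6% lower there. The small MAF partners Maff (−0.58) and Mafk (−0.56) were lower, and the related repressor Bach2 (0.45) and Sqstm1 (0.28), an adaptor that binds KEAP1, were higher (edgeR adjusted p from 5.0e-16 to 6.3e-11).

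Other known NRF2 targets did not share one direction. Of 22, 10 were higher and 8 lower in the same comparison (26.7% and 25.6% of all genes, list median 0.06). Slc7a11, the cystine importer that feeds glutathione synthesis, was 9.75 ± 1.2 CPM in DKO and 22.1 to 25.6 CPM (group means) in the 4 lines without insulin, a log2 fold change of 1.39, 1.40, 1.33 and 1.19 for IR, K1030R, ∆CT and JMO (edgeR adjusted p from 4.2e-14 to 9.1e-12). Nqo1, a quinone reductase often used as an NRF2 readout, was also above DKO in all lines (0.31, 0.34, 0.47 and 0.47 for the same lines, edgeR adjusted p from 7.0e-09 to 1.4e-05). Mgst1, a membrane-bound glutathione transferase, was 11.9 ± 0.79 CPM in DKO and 11.4 ± 0.75 in JMO but 2.27 to 3.39 CPM (group means) in the other lines (−2.03, edgeR adjusted p = 1.0e-21), and Fth1, the ferritin heavy chain, was lower (−0.64, edgeR adjusted p = 1.6e-24). Gsta4, a transferase of lipid peroxidation products, was higher (0.61, edgeR adjusted p = 1.9e-16).

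In the thioredoxin and peroxidase list 9 of 23 tested genes were higher and 4 lower (26.7% and 25.6% of all genes, list median 0.06), with Gpx3 too low to test. Sod3, the secreted superoxide dismutase, was 68.5 ± 2.0 CPM in DKO and 66.5 ± 2.1 in JMO against 13.5 to 17.8 CPM (group means) in IR, K1030R and ∆CT (−2.17, edgeR adjusted p = 5.0e-31). Glutaredoxin (Glrx, −0.72) and the mitochondrial Sod2 (−0.52) were also lower, and Sesn1, a sestrin, was higher (0.44; edgeR adjusted p from 2.5e-21 to 2.2e-16 for these 3). Prdx4, the peroxiredoxin of the endoplasmic reticulum, was highest in IR at 175 ± 5.3 CPM and lower in DKO (123 ± 2.7) and JMO (123 ± 2.5), and thioredoxin itself (Txn1) did not pass (0.07, edgeR adjusted p = 0.051). Of 20 glutathione genes 6 were higher and 3 lower (26.7% and 25.6% of all genes, list median 0.03). The largest difference after Mgst1 was that of Chac1, which degrades glutathione, at 4.99 ± 0.51 CPM in DKO and 17.1 ± 1.9 in IR (1.56 in the comparison of 5 groups). Of 10 haem genes 3 were higher and 3 lower, close to the shares of all genes (26.7% and 25.6%, list median 0.01). Among them were Alas1 (−0.36), the first enzyme of haem synthesis, the haem transporter Slc48a1 (−0.15) and the ferritin light chain Ftl1 (0.15), with edgeR adjusted p from 2.2e-13 to 5.0e-05. The median of the 10 members in this comparison was −0.15.

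**Figure D5:**
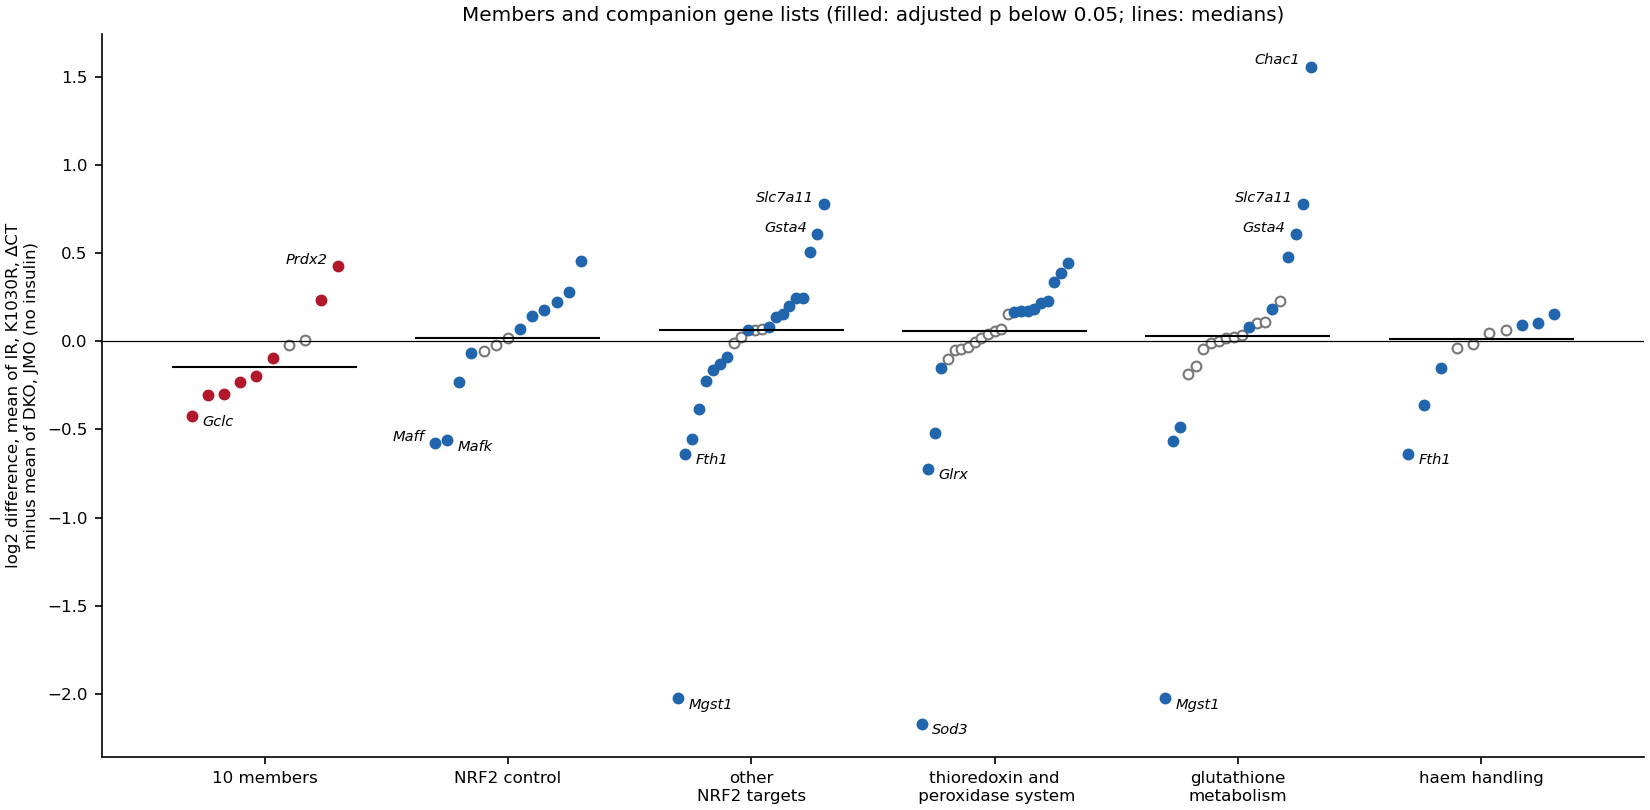
Log2 difference between the mean of IR, K1030R and ∆CT and the mean of DKO and JMO without insulin (vertical axis) for the members and the 5 companion lists, with one point per gene, filled where the edgeR adjusted p is below 0.05, and lines at list medians. 6 of the 10 members lie below 0 and are filled, while the companion lists spread to both sides, from −2.17 for Sod3 to 1.56 for Chac1.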

How the data were processed

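Per the file headers and the labels, the authors deposited one table of estimated counts of reads per Ensembl gene for 26 libraries, made with fastp and kallisto against the mouse Ensembl transcriptome; the reads were single-end and reverse-stranded, and kallisto's strand option is not given in the sources used here. Counts were rounded to whole numbers. Genes above 0.5 CPM in at least 4 libraries were kept (15402), scaled by TMM and fitted with edgeR 4.0.16 in R 4.3.3, with robust quasi-likelihood dispersions and 1 mean per group over all 9 groups. Contrasts were tested with the quasi-likelihood F test, p-values were adjusted by Benjamini-Hochberg over all tested genes within a contrast, and genes below an adjusted p of 0.05 were called. A minimum fold of 1.5 was tested with glmTreat. SEs were taken from the log2 fold change and its F value. The members, lists and markers were chosen with earlier results of these data known. All 10 members are named, as are Nfe2l2, Keap1, Bach1, Nqo1, Slc7a11, Txn1, Prdx4, Insr and Igf1r and, from each list, the 4 called genes with the largest difference between the lines with an intracellular domain and DKO and JMO. Igf1r read 27.1 ± 2.0 CPM in DKO and 35.1 ± 0.68 CPM in IR. Symbols were matched to 51916 of the 52962 IDs. Depth was 17228982 to 24694828 counts per library; 0.5 CPM is 8.61 counts in the shallowest. On simulated counts for IR against DKO over 15164 genes, 52% of genes changed by 1.25-fold, 67.3% by 1.5-fold and 83.7% by 2-fold were called the right way, and 0.0468% of unchanged genes were called. The simulation changed 48 to 50 genes per fold, drawn from all levels of expression. In the measured IR against DKO, 25.6% and 24.1% of all genes were called higher and lower. With so few changed genes the adjustment is stricter, so these rates do not carry over to the members. Lengths and positions came from GENCODE M21. Alternatives were RLE scaling, 2 other filters on low counts, unrounded counts, DESeq2 1.42.0, limma voom 3.58.1, a fit of only the groups compared, a replicate block and leaving out each library. Over pairs of groups, deviations of dishes with the same replicate number had a median correlation of −0.00111 (100 pairs) and those with different numbers −0.00162 (200 pairs), so the numbers were not used as pairs.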

Additional observations from a re-analysis of the deposited data

How the results depend on the processing

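No direction of a called member turned under any alternative. Against a minimum fold of 1.5 the count of members called fell to 1 in IR, K1030R, ∆CT and JMO against DKO, to 0 for the lines with an intracellular domain against DKO and JMO, to 1 for JMO against IR without and with insulin, and to 0 for K1030R and ∆CT against IR and JMO against K1030R and ∆CT, without and with insulin. With no filter on low counts 1 member was called for insulin in IR, Prdx5 (−0.16, edgeR adjusted p = 0.023). On leaving out 1 library, the count ran from 3 to 6 for K1030R against IR and from 3 to 8 for ∆CT against IR without insulin, from 0 to 1 for insulin in IR, and from 0 to 1 for the insulin effect in K1030R minus that in IR. Uncalled values near 0 turned sign on leaving out a library and ran from −0.023 to 0.080 (Prdx2) and from −0.13 to 0.016 (Prdx5) for ∆CT against IR without insulin. Those of Prdx2 ran from −0.030 to 0.071 for JMO against K1030R without insulin, and with insulin from −0.043 to 0.0088 for K1030R against IR, from −0.087 to 0.035 for ∆CT against IR and from −0.11 to 0.0094 for JMO against ∆CT. That of Hmox1 for insulin in K1030R ran from −0.080 to 0.026. The cause was not tested.

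A replicate block was fitted although the numbers did not pair the dishes. With the replicate block 8 members were called in IR and 8 in JMO against DKO, Prdx5 in JMO passed (0.12, edgeR adjusted p = 0.042), Prdx1 in ∆CT against IR with insulin did not (0.08, edgeR adjusted p = 0.051), and Prdx1 in JMO against K1030R with insulin did (−0.07, edgeR adjusted p = 0.048). That last difference also passed with RLE scaling, with a filter of 10 counts and in a fit of only the groups compared (edgeR adjusted p = 0.035, 0.035 and 0.033). It passed by limma voom and DESeq2 as well (adjusted p = 0.035 and 0.013). Other alternatives ended calls of the main fit. With no filter on low counts, Prdx1 was lost in IR against DKO, JMO against IR without insulin and ∆CT against IR with insulin, and Prdx6 in JMO against K1030R with insulin (edgeR adjusted p = 0.071, 0.24, 0.12 and 0.18), the last also with RLE scaling and a filter of 10 counts (0.058 and 0.057). DESeq2 lost Prdx6 in the same comparison and Hmox1 in ∆CT against IR without insulin (adjusted p = 0.10 and 0.051), and limma voom lost Txnrd1 in K1030R against IR without insulin (adjusted p = 0.056). Fits of only the groups compared lost Gclc in ∆CT against DKO, Hmox1 and Gclm in ∆CT against IR, Prdx1 and Prdx5 in JMO against IR without insulin, and Prdx1 in ∆CT against IR with insulin (edgeR adjusted p = 0.084, 0.068, 0.060, 0.065, 0.061 and 0.097). Calls were gained too. Prdx3 in JMO against ∆CT with insulin passed with RLE scaling, either other filter and in a fit of only these groups (edgeR adjusted p = 0.018 to 0.038). With no filter and in fits of only the groups compared, Prdx5 passed in JMO against DKO (edgeR adjusted p = 0.043 and 0.016). It also passed there in K1030R against IR with insulin (edgeR adjusted p = 0.045 and 0.029). Gclm passed with RLE scaling in ∆CT against DKO (edgeR adjusted p = 0.046). In ∆CT against IR with insulin it passed with RLE scaling and a filter of 10 counts (edgeR adjusted p = 0.036 and 0.030). By DESeq2, Prdx1 passed in JMO against K1030R and ∆CT without insulin and against IR with insulin (adjusted p = 0.042, 0.026 and 0.037). Limma voom called Prdx1 in JMO against ∆CT without insulin (adjusted p = 0.046). Adding the reads of named copies moved no level of Prdx2 or Prdx6 by more than its SD. With 2 or 3 dishes per group and an SE of about 0.05 on the log2 scale, differences under about 0.1 could not be called for most members.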
